A study of Homo sapiens with 2 samples.

Results

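Broad accessible regions of GM12878 are described here, taken as the regions of the deposited list that lie on chromosomes 1 to 22 and span 2000 bp or more. There were 746 of them, out of 22668 regions on these chromosomes and 23612 regions in the whole list. GM12878 is an established B lymphoblastoid cell line, obtained from B lymphocytes that Epstein-Barr virus had immortalised. Open chromatin was assayed by ATAC-seq, in which a transposase inserts sequencing adapters wherever DNA is exposed. The 2 libraries, of 50000 cells each, came from separate untreated cultures harvested in exponential growth and form 1 group. Both cultures are represented by 1 list with no values per culture, so there is no replicate error, no contrast between conditions and no test below. Widths chose the members and come from the same peak calling as the scores, so both are given as descriptions. Read depth is unknown, and all positions of regions are in hg19.

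Most accessible sites are short stretches where transcription factors or the transcription machinery displace nucleosomes. Wider open stretches are known at promoters within CpG islands, where unmethylated CpG-rich DNA stays free of stable nucleosomes. They are also known at groups of enhancers lying side by side near genes that define a cell's identity. In B cells, such genes encode surface receptors, antigen-presenting molecules, survival factors and transcription factors of the NF-kB and other families.

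The widest region on chromosomes 1 to 22 lay next to MIR155HG, the host gene of miR-155, a microRNA known to act in activated B cells. Its mature sequence is shown because it is the functional product of that locus, with the seed (bases 2 to 8) in capitals. Beside it are the 250 bases before the start of 4 genes known to begin at some of the 30 widest regions. RFTN1 and HIVEP2 stand for the widest after ING1, and CPEB2 and MAT2B for the highest and lowest CpG content among those genes. Each CpG is in capitals. The sequences are from RefSeq in the build GRCh38.p14, so their coordinates cannot be set against the hg19 positions of the regions.
hsa-miR-155-5p (GRCh38.p14, chr21:25573983-25574006, plus strand): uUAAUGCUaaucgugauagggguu
RFTN1 (GRCh38.p14, chr3:16513700-16513949, minus strand): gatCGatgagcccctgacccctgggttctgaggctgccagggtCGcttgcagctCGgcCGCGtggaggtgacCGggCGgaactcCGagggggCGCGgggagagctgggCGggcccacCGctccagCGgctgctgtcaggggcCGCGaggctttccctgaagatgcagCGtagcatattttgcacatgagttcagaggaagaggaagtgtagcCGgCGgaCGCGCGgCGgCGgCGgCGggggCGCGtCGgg
HIVEP2 (GRCh38.p14, chr6:142945734-142945983, minus strand): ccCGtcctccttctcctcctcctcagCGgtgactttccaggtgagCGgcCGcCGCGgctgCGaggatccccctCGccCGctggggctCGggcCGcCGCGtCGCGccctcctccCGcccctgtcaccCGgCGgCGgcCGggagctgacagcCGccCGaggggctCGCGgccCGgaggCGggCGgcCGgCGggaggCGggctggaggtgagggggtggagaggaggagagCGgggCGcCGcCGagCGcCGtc
CPEB2 (GRCh38.p14, chr4:15002231-15002480, plus strand): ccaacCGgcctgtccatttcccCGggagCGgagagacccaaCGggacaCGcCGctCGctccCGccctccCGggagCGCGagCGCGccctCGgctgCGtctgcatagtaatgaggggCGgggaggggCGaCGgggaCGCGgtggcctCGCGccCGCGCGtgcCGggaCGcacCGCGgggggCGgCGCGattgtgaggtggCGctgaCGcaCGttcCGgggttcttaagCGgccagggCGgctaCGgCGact
MAT2B (GRCh38.p14, chr5:163502814-163503063, plus strand): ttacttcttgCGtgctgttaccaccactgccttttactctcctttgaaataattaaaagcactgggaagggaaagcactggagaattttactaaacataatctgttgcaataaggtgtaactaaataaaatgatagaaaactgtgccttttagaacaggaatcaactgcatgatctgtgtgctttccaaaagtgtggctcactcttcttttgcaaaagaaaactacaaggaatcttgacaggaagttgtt

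These 250 bases held 28 CpGs in RFTN1, 36 in HIVEP2 and 40 in CPEB2, against 1 in MAT2B. The G and C content was 70.4%, 80.0%, 74.8% and 36.8% in the same order. A wide region was thus seen at genes with many CpGs before their listed start and at 1 gene with nearly none. The start listed by RefSeq need not be the one used in these cells.

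Broad regions were few but took a larger part of the accessible sequence. They made up 3.29% of the regions and, with 1817 kb in all, 9.06% of the accessible bases. Their median width was 2288 bp, with quartiles at 2128 and 2597 bp, against a median of 741 bp for the 21922 narrower regions. The number fell steeply with width: 230 regions reached 2500 bp, 67 reached 3000 bp, 10 reached 4000 bp and 1 reached 5000 bp. The plot of widths shows no break at the threshold. The 10 members just inside it spanned 2000 to 2006 bp and the 10 regions just outside it 1992 to 1997 bp, and all 20 carried the highest score.

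**Figure D1:**
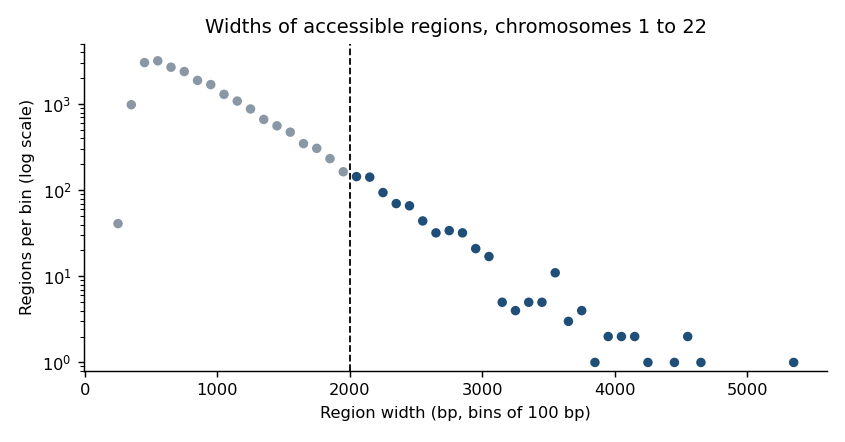
Number of accessible regions on chromosomes 1 to 22 (log axis) in bins of 100 bp of width; each point is 1 bin, with dark points for regions of 2000 bp or more and the dashed line at the threshold. The counts fall off smoothly through the threshold, and the widest region of these chromosomes spans 5301 bp.

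Nearly every broad region carried the highest score. The authors' score is a whole number per region from 541 to 1000, its scale is not named, and it was used here to describe regions within the list. All regions at 1000 share 1 value, so the score does not rank them against each other. Of the 746 broad regions, 742 (99.5%) stood at 1000, against 59.9% of all regions on these chromosomes. The share rose over every width class up to 2500 bp. It was 17.7% under 500 bp, 46.5% from 500 to 749 bp, 70.5% from 750 to 999 bp, 88.5% from 1000 to 1499 bp and 98.1% from 1500 to 1999 bp. Among broad regions it was 99.6% under 2500 bp, 98.8% from 2500 to 2999 bp and 100% for the 67 regions from 3000 bp. Most of the rise with width thus lay below the threshold, and regions from 1500 to 1999 bp were nearly as uniform in score as the broad ones.

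**Figure D2:**
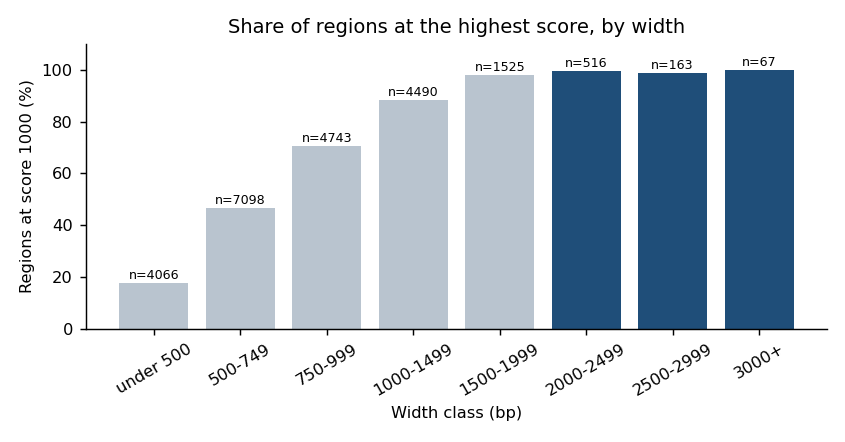
Share of regions at the highest score of 1000 (percent) in 8 classes of width, with the number of regions above each bar and dark bars for regions of 2000 bp or more. The share climbs from 17.7% in the narrowest class to 98.1% just under the threshold and stays between 98.8% and 100% above it.

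Only 4 broad regions scored below 1000, and 2 of these lay in the same clusters as the 2 widest regions. The lowest score was 769, at a region of 2823 bp (chr17:37023721-37026543) where LASP1, which encodes an actin-binding protein, is known to start. A score of 929 belonged to a region of 2743 bp (chr21:26941559-26944301) within MIR155HG. A score of 954 belonged to a region of 2153 bp in 9q13 (chr9:66459620-66461772), 299 bp from the second widest region. The last, at 992, was a region of 2232 bp in 8q24.3 (chr8:145050856-145053087).

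No annotation of hg19 was used, so genes beside regions are named from general knowledge of where they lie, as background and not as a measurement. This was done for 82 regions and 81 genes. The symbol was found in RefSeq's table for GRCh38.p14 in all 82 cases, on the same chromosome. On the 10 chromosomes with more than 1 named gene, the order of the genes in that table was that of the regions. This leaves the exact overlap of gene and region unmeasured. Gene starts were not counted over narrower regions, so the counts of starts given below have no background share.

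Of the 30 widest regions, which spanned 3515 to 5301 bp, 23 lay where a gene is known to start, 3 within a gene and 1 just past the end of a gene. For the other 3 no gene was named. How often narrower regions lie at gene starts was not measured, so whether starts are more frequent at wide regions was not tested. All 30 had the highest score. After the region next to MIR155HG, with 5301 bp (chr21:26948981-26954281), came an unnamed region of 4661 bp in 9q13 (chr9:66454660-66459320), a band known for segmental duplications. Next, of 4575 bp (chr13:111364394-111368968), lay at the start of ING1, which encodes a chromatin-binding growth regulator.

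Genes known for roles in lymphocytes stood at several of these widest regions. RFTN1, whose product raftlin organises lipid rafts in B cells, starts at a region of 4500 bp (chr3:16551194-16555693), with the next region 578 bp away. HIVEP2, a zinc finger factor that binds NF-kB-like motifs, starts at 4409 bp of open chromatin (chr6:143264913-143269321). A region of 3963 bp (chr18:60826048-60830010) lay within BCL2, the anti-apoptotic gene named after a B cell lymphoma. It belonged to a cluster of 6 regions, and its neighbour was 186 bp away. TNFAIP8, a regulator of cell death induced by TNF and NF-kB, held a region of 3565 bp (chr5:118688912-118692476), also in a cluster of 6. BHLHE40, a transcriptional repressor of activated lymphocytes, starts at a region of 3796 bp (chr3:5018641-5022436). MSC, first known as activated B cell factor, starts at a region of 3688 bp (chr8:72754103-72757790) in a cluster of 7. These genes were singled out for their roles after the regions were seen, and whether such genes are more frequent at broad regions was not tested.

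Adhesion and surface glycan genes were also found there. ALCAM, which encodes an adhesion molecule of leukocytes, starts at a region of 4109 bp (chr3:105084912-105089020) whose nearest neighbour was 42.3 kb away. ST8SIA4, a polysialyltransferase gene, starts at 4067 bp (chr5:100235582-100239648), and MAN1A1, which encodes a mannosidase that trims N-glycans, at 3949 bp (chr6:119668530-119672478). A region of 3562 bp lay within ST3GAL1, a sialyltransferase gene (chr8:134510526-134514087). GYPC, which encodes a membrane sialoglycoprotein, starts at 3564 bp (chr2:127412649-127416212). The regions at ALCAM and MAN1A1 stood alone, while those at ST8SIA4 and GYPC belonged to clusters of 3 and 4.

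Genes with general functions made up the rest. CPEB2, which controls translation of mRNAs, starts at 4278 bp (chr4:15002703-15006980), and this region lay 118 kb from its nearest neighbour. SGMS1, which makes sphingomyelin, starts at 4156 bp (chr10:52381525-52385680), and ANXA2R, an annexin receptor gene, at 4072 bp (chr5:43039558-43043629). SYNCRIP, an RNA-binding protein gene, starts at 3826 bp, SLC12A2, an ion cotransporter gene, at 3740 bp, and VIM, the vimentin gene, at 3666 bp. The neighbours HMMR, which encodes a hyaluronan receptor also found at the spindle, and MAT2B, of methionine metabolism, start at 3593 and 3588 bp. These 2 regions faced each other across 40.9 kb in 5q34. The remaining genes were ANG, ATP2B1, TRIM41, CITED2, JADE1 and INSIG1, at 3515 to 3674 bp.

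The genes known to start at a named broad region mostly had CpG-rich promoters. RefSeq's promoter table held 66 of these 71 genes. In windows from 250 bases before to 50 after the listed start, their median ratio of observed to expected CpG was 0.86, with quartiles at 0.71 and 0.99. Over the 15101 protein-coding genes of chromosomes 1 to 22 in the table it was 0.77, with quartiles at 0.39 and 0.92. A ratio of 0.6 or more was found for 57 of the 66 (86.4%), against 66.3% of protein-coding genes. The median G and C content was 65.2% against 63.0%. Only well-known genes could be placed without an annotation of the build, and no test was made, so these shares describe the named genes and not all 746 regions. Promoters at narrower accessible regions were not measured. Whether the high CpG content is particular to broad regions was therefore not tested.

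Of 3 motifs searched on both strands of the same windows, the GC box GGGCGG was in 51 of the 66 windows (77.3%), against 58.9% of protein-coding promoters. The ETS-like motif CCGGAAG was in 6 (9.09%) against 14.4%, and the TATA-like motif TATAAA in 5 (7.58%) against 9.71%. The GC box contains a CpG, as does the ETS-like motif, so neither is independent of the CpG content. A match is a description of the letters, not a bound site. Here too, promoters at narrower accessible regions were not measured.

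Broad regions lay slightly closer to their neighbours than narrower ones. The median distance from edge to edge to the nearest region was 13.1 kb, with quartiles at 3.18 and 41.6 kb, against 18.6 kb, 4.73 and 51.0 kb for narrower regions. Neighbours were also counted within the joining distance, the length midway between 0 and 25 kb that is in common use to join enhancers into clusters. A neighbour within it was present for 362 of 746 (48.5%), against 42.1% of all regions. Within 5 kb the shares were 31.8% and 25.9%, and within 25 kb 65.3% and 57.6%. Within 1 kb there was one for 104 (13.9%), against 9.91% of all. Wide regions reach further toward their neighbours, which shortens distances between edges. Between midpoints the medians were 14.9 kb for broad and 19.4 kb for narrower regions, so the broad ones were also closer on that measure.

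**Figure D3:**
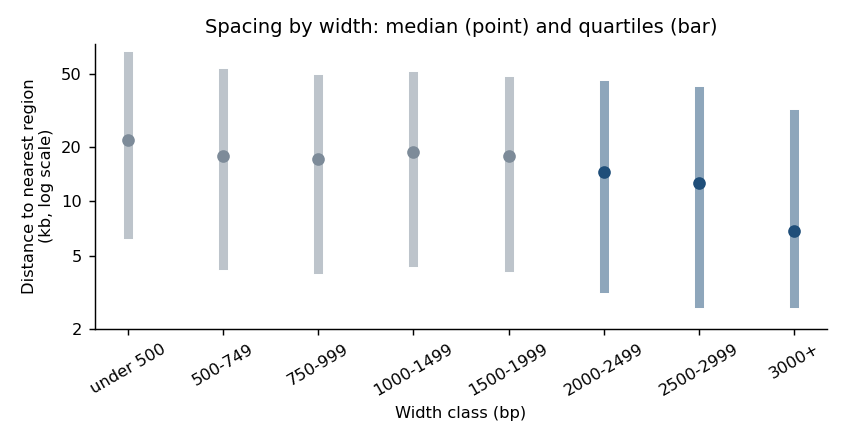
Distance in kb (log axis) from each region to the nearest other region in 8 classes of width, with the median as a point, the quartiles as a bar, and dark symbols for regions of 2000 bp or more. Medians lie between 17.1 and 21.9 kb in the classes under 2000 bp and fall to 14.5, 12.6 and 6.85 kb in the 3 broad classes.

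The distance was shortest in the widest class. It was 14.5 kb from 2000 to 2499 bp, 12.6 kb from 2500 to 2999 bp and 6.85 kb for the 67 regions from 3000 bp. The quartiles of these classes overlapped widely, with upper quartiles of 43.4, 40.5 and 30.2 kb. The share with a neighbour within the joining distance was 46.9%, 49.7% and 58.2% in the same order, against 43.1% from 1500 to 1999 bp.

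Broad regions were not usually next to one another. The nearest region was also broad for 27 of 746 (3.62%), close to the 3.47% of all regions whose nearest region was broad. Nearest neighbours of broad regions had a median width of 748 bp, against 762 bp for those of narrower regions. Of the neighbours of broad regions 56.3% were at the highest score, against 60.2% for narrower ones. For the 67 regions from 3000 bp both shares were higher, with 67.2% of neighbours at the highest score and a broad nearest region for 5 of 67 (7.46%). The second share rests on only these 5 regions. From a broad region to the next on the chromosome the median gap was 2.06 Mb, and 16 of 725 such gaps were no longer than the joining distance. When regions within that distance of each other were joined, 43 broad regions (5.76%) fell in clusters of 5 or more, against 4.14% of all regions. Of the 161 such clusters 36 held a broad region, and 6 held more than 1. In contrast, 384 broad regions (51.5%) had no neighbour within this distance, against 57.9% of all.

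The 5 closest pairs of broad regions lay 60 to 938 bp apart with no region between them. The closest pair, of 2522 and 2138 bp, was separated by 60 bp in 5q35.3 (chr5:180614527-180617048 and chr5:180617109-180619246). The next, of 2070 and 2139 bp and 278 bp apart, flanked the start of NEUROG2 in 4q25 (chr4:113435171-113437240 and chr4:113437519-113439657). NEUROG2 encodes a transcription factor of neurons, and another broad region, of 2036 bp, followed after 4207 bp. In 9q13 the regions of 4661 and 2153 bp lay 299 bp apart. Within MIR155HG regions of 2763 and 2743 bp lay 633 bp apart, and at RGMB, which encodes a BMP co-receptor, regions of 2935 and 2205 bp lay 938 bp apart. Whether such a pair is 1 open stretch divided by peak calling was not tested.

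The MIR155HG locus held 3 broad regions, the most of any cluster of 5 or more. They belonged to 8 regions over 22.3 kb, which covered 72.7% of that length. The region at the start of the gene itself was not broad, with 1244 bp (chr21:26933843-26935086).

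**Figure D4:**
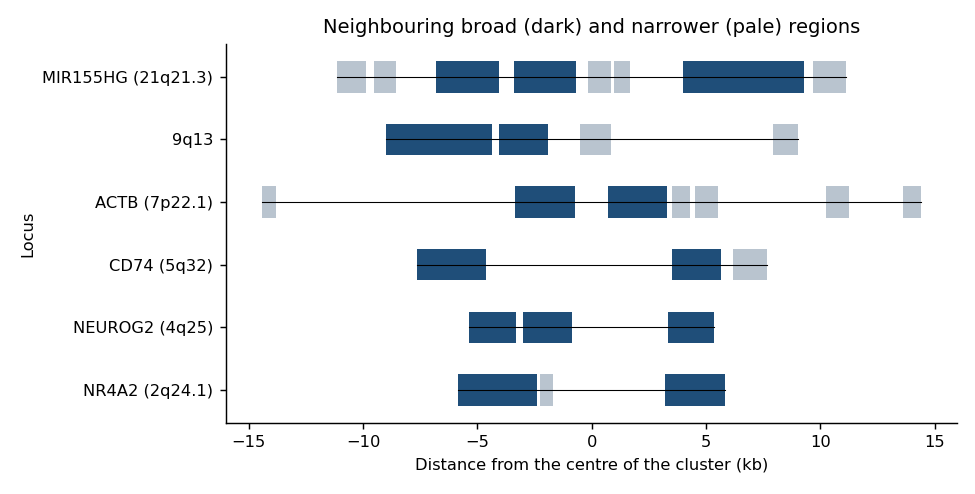
Regions of 6 clusters that hold 2 or 3 broad regions, drawn to scale against the distance in kb from the centre of each cluster, with broad regions dark and narrower ones pale. Each row is 1 locus with its band; at MIR155HG 8 regions fill 72.7% of 22.3 kb, and at NEUROG2 all 3 regions are broad.

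Among the most isolated broad regions, all 5 lay where a gene is known to start. The region at NSMCE3, which encodes a subunit of a chromosome maintenance complex, was 577 kb from the nearest other region (chr15:29561062-29563100). Those at DPY19L1 (chr7:35076004-35078073) and UBE3A, a ubiquitin ligase gene (chr15:25682896-25685052), were 499 and 353 kb away. SLC25A13, a mitochondrial carrier gene, and VPS13A, a lipid transport gene, followed at 341 and 278 kb. All 5 spanned only 2039 to 2157 bp, near the threshold, and all had the highest score. At the other end, a region of 2591 bp at the start of BBX (chr3:107241479-107244069) lay 2 bp from its neighbour. One of 2202 bp at the histone gene H2BC5 (chr6:26157188-26159389) lay 9 bp from its neighbour. Both extremes were picked by their rank once the distances were known. Isolated narrower regions were not placed at genes, so the gene starts here have no background share.

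Broad regions were unevenly spread over the chromosomes. Chromosome 4 had 82 among 1647 regions, a share of 4.98% (95% Wilson interval 4.03 to 6.14), and chromosome 13 had 32 of 725, or 4.41% (3.14 to 6.16). Chromosomes 5, 6 and 7 followed with 3.995%, 3.97% and 3.92%. The lowest shares belonged to chromosomes 22, 20, 16, 19, 15 and 17. Chromosome 22 had 0 broad regions among 152, which allows a share of up to 1.97% if a count of 0 is taken to allow 3, and 2.46% as the upper bound of the Wilson interval. Its widest region spanned 1633 bp. Chromosome 20 had 5 of 427 (1.17%), chromosome 16 had 8 of 558 (1.43%), chromosome 19 had 8 of 523 (1.53%), chromosome 15 had 9 of 519 (1.73%) and chromosome 17 had 10 of 504 (1.98%). Together these 6 held 40 broad regions among 2683 (1.49%), against 706 of 19985 (3.53%) on the other 16. The intervals cover counting error only and treat regions as independent. The 6 were taken by rank, so their lower share is a description.

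A low share of broad regions did not go with narrow regions in general. The median width on these 6 chromosomes was 793 bp, against 750 bp on the other 16, while the 90th percentile was 1371 bp against 1520 bp. Chromosome 19 had the highest median of all 22, at 839 bp, and chromosome 4 the lowest, at 716 bp. Across the 22 chromosomes the broad share and the median width had a Pearson r of -0.70 and a Spearman rho of -0.70. Both values of a chromosome come from the same regions, so this is a description. The share at the highest score was 56.1% on the 6 and 60.4% on the others. From 1500 bp upward the same 6 chromosomes were lowest, with 1.97% of regions on chromosome 22 and 5.74% to 7.54% on the other 5, and chromosome 4 was highest with 12.7%. The order between them changed: chromosome 13 had 9.93%, and chromosome 14, next above the 6 at 2000 bp with 2.45%, had 11.1%. As background, chromosomes 16, 17, 19 and 22 are known to be richer in genes than chromosomes 4 and 13. This background does not cover all of the 6, and gene density was not measured. Regions per Mb ran from 2.96 on chromosome 22 to 8.85 on chromosome 19 among the 6. Chromosome 4 had 8.62 and chromosome 13 had 6.30. Across the 22 chromosomes the broad share and the regions per Mb had a Pearson r of 0.55 and a Spearman rho of 0.44. Whether gene density bears on the broad share was not tested.

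**Figure D5:**
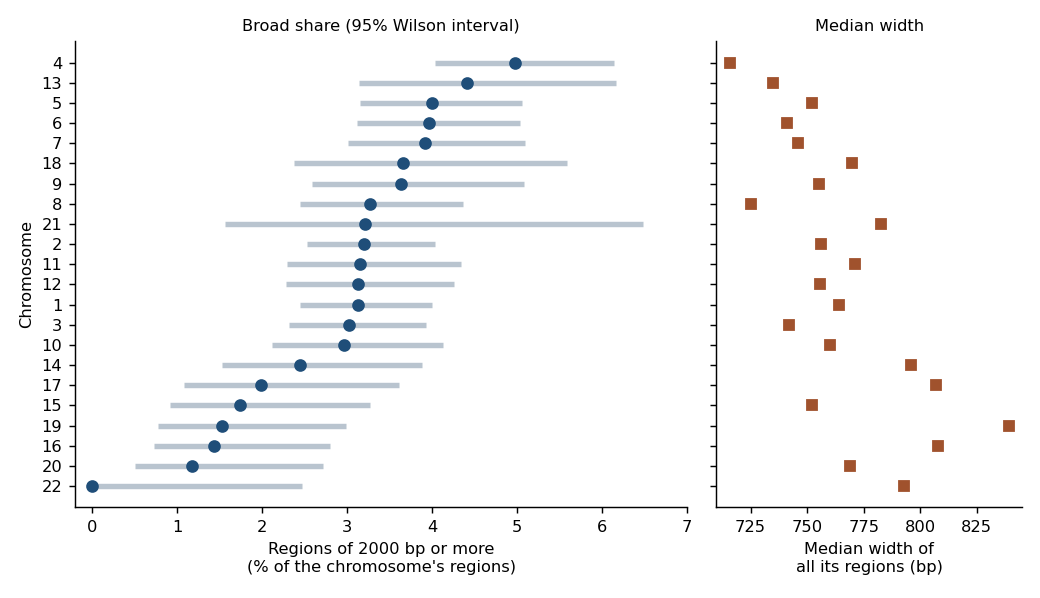
Left, share of each chromosome's regions that span 2000 bp or more (percent; points, with 95% Wilson intervals as bars); right, median width in bp of all regions of the same chromosome. Chromosome 4 has the highest broad share (4.98%) and the lowest median width (716 bp), and chromosome 22 has no broad region.

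Chromosomes 15 and 19 had broad regions at a few genes of note. B2M, which encodes the light chain of class I antigen-presenting molecules, starts at a region of 2106 bp (chr15:45002341-45004446) in a cluster of 5. ISG20, an interferon-induced exonuclease gene known in germinal centre B cells, starts at 2477 bp (chr15:89181401-89183877). MEIS2, a homeobox gene, starts at 2155 bp (chr15:37392060-37394214), 268 kb from any other region. On chromosome 19 the region of 2383 bp in 19p13.3 lay at GADD45B, a stress gene induced by NF-kB (chr19:2475143-2477525). These genes were picked after the regions were seen. No region on chromosomes 16 and 20 was given a gene, and on chromosome 17 only LASP1 was named. This reflects which genes were placed from general knowledge, not which genes lie there.

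The share of broad regions differed little between light bands and the middle to darkest bands, and was lower in the palest dark bands. It was 3.26% of regions in light bands and 2.44% in the palest dark bands (95% Wilson interval 1.81 to 3.28). The next classes had 3.46% and 3.36%, and the darkest had 3.60% (2.97 to 4.34). Centromeric bands had 6 of 108 (5.56%) and variable bands 3 of 76 (3.95%). Light bands held 398 of the 746, the palest dark 42 and the darkest 103. The share in light bands was 0.34 percentage points below that in the darkest (95% interval -1.14 to 0.37 for the difference, counting error only), an interval that spans 0. On the 6 chromosomes with the lowest shares it was 1.46% in light bands, against 3.51% on the other 16, so the difference between chromosomes was present within 1 stain class. Across the 22 chromosomes, the broad share and the light part of a chromosome's length had a Pearson r of -0.68 and a Spearman rho of -0.44. Within 10 Mb of a chromosome's end 89 of 3043 regions were broad (2.92%), against 3.35% further in, and within 5 Mb the shares were nearly equal, at 3.26% and 3.29%.

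Counted by band, 4q24 held the most broad regions, 9 among its 74 regions. Bands 2q24.1, 4q35.1, 6q13, 6q21 and 7q31.1 tied with 7 each. Their shares ran from 6.09% of regions in 6q21 to 15.2% in 2q24.1. Leaving out centromeric, variable and stalk bands, 407 of 735 bands held at least 1 broad region, 225 held exactly 1 and 13 held 5 or more. The bands were ranked by this count, so their high values are a description. The counts of gene starts in these bands likewise have no share over narrower regions beside them.

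In 4q24, 6 of the 9 lay at known gene starts. They included NFKB1, which encodes the p105 precursor and p50 subunit of NF-kB, with 2415 bp (chr4:103421362-103423776). PPP3CA, the catalytic subunit of calcineurin, starts at 2048 bp (chr4:102267808-102269855). SLC39A8, a metal ion transporter gene, UBE2D3, a ubiquitin-conjugating enzyme gene, CISD2 and NPNT start at 2080 to 2540 bp. Regions at NFKB1, UBE2D3 and CISD2 each lay over 25 kb from their nearest neighbours, at 40.4, 38.8 and 38.8 kb. Those at UBE2D3 and CISD2 were nearest to each other. The 9 regions of the band thus stood mostly apart, with a median distance of 38.8 kb.

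In 6q21 all 7 lay at known gene starts, of FOXO3, CD164, CDK19, AMD1, REV3L, MARCKS and HDAC2. The widest, 3016 bp at MARCKS (chr6:114175723-114178738), an actin and membrane regulator, lay 112 bp from its neighbour. FOXO3, a transcription factor of quiescence and survival, started at 2286 bp (chr6:108878996-108881281), and HDAC2, a histone deacetylase gene, at 2275 bp (chr6:114290814-114293088). In 6q13, 6 of 7 lay at gene starts, among them CGAS, which encodes the sensor of cytosolic DNA, with 2213 bp (chr6:74160157-74162369). The seventh, of 3256 bp (chr6:74223081-74226336), was placed at EEF1A1, the gene of a translation elongation factor, but not at its start.

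In 2q24.1 only 3 of 7 lay at known gene starts, and the median distance to the nearest region was 2.66 kb. NR4A2, an immediate early nuclear receptor gene, starts at 3433 bp (chr2:157188355-157191787), with a second broad region of 2630 bp 5626 bp further on. GPD2 starts at 2537 bp and PKP4 at 2503 bp, and a region of 2218 bp lay within CYTIP, a regulator of leukocyte adhesion (chr2:158297108-158299325). In 4q35.1 the named genes were DCTD, ING2, ACSL1 and CFAP97, at 2008 to 3198 bp. The widest region of that band, 3751 bp (chr4:185201429-185205179), was given no gene. In 7q31.1 the starts were of DNAJB9, IMMP2L, DOCK4, IFRD1, SAMTOR and MDFIC, at 2025 to 2476 bp.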

How the data were processed

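ATAC-seq was done on 2 cultures of GM12878, in 1 group. A single list, which gives each region's start, end, number and score without a header, was deposited by the authors for the pair of libraries. Per the submitters' processing notes the build was hg19 and the tools were MACS2 2.1.0, BWA 0.7.13, Trim Galore 0.3.3, CASAVA 1.8.4, SAMtools 0.1.19, Picard 1.92 and bedtools 2.24.0, without roles. Whether reads were shifted for the transposase, or peaks called per sample or pooled, is not stated in the labels or the list. The scale of the deposited score is not named, and depth is unknown. The name of the list carries the terms idr and FilMappMitoBlack, which the list itself does not explain.

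Width was taken as end minus start. Distances are edge to edge between neighbouring regions of chromosomes 1 to 22. Bands of hg19, assigned by midpoint, came from circlize 0.4.16. Calculations used Python 3.11.15, numpy 2.4.6, pandas 2.3.3, scipy 1.17.1 and matplotlib 3.10.9, and were tested on simulated data. Members and lists were chosen with earlier results of these data known. Regions named were the 30 widest, the lowest scores (4 below the highest), the 5 closest pairs and the 5 bands with most broad regions (6 with ties). Those on single chromosomes, the isolated, the closest, and the promoter windows and motifs were added later. Numbers skipped in the authors' numbering stood beside 1 broad region and 111 regions in all, so neighbours removed after numbering can have touched few distances. Sequences of hg19 were not used here, and 1 named gene is not reported here.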

Additional observations from a re-analysis of the deposited data

Results flagged for a closer look

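Regions of 2000 bp or more also lay outside the chromosomes described above, in sequences that entered no comparison. Chromosome X held 19 among 776 regions (2.45%), with a median width of 2422 bp and a widest of 2815 bp. The unplaced sequences of hg19 held 16 among 165 regions (9.70%), with a median of 2712 bp and a widest of 28902 bp. All 19 and all 16 were at the highest score. The list has no control sample to set these counts against.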

How the results depend on the processing

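Over 7 values, 36 alternatives were computed, all planned. Of these, 15 left the value within its counting interval (counts within 1.5 times), 21 moved it and 0 reversed it. Only the light minus darkest difference could change sign, and its interval spans 0. The count, the shares, the distance and the highest minus lowest difference cannot turn negative, so the absence of reversals says little. By construction the number of broad regions was 2271 at a minimum of 1500 bp, 230 at 2500 bp and 67 at 3000 bp. Over the same minimums the share at the highest score was 98.5% at 1500 bp and 100% at 3000 bp. The median distance to the nearest region was 16.1 kb at 1500 bp and 6.85 kb at 3000 bp. The share with a neighbour within the joining distance was 44.9% at 1500 bp and 58.2% at 3000 bp. The share whose nearest region was also broad was 11.3%, 1.30% and 1.49% at 1500, 2500 and 3000 bp. Over all regions it was 10.2%, 1.13% and 0.326% in the same order. At 2500 and 3000 bp it rests on very few of the 230 and 67 regions. No excess over all regions can be read from it there. The chromosome share, highest minus lowest, was 10.7, 1.83 and 0.67 percentage points. The highest chromosome changed with the minimum. It was chromosome 4 at 1500 bp, chromosome 21, with only 218 regions, at 2500 bp, and chromosome 5 at 3000 bp. With only regions at the highest score, neighbours included, the highest minus lowest chromosome share was 8.18 points and the median distance 27.3 kb. The share with a neighbour within the joining distance was then 33.8%, and the share with a broad nearest region 5.39%. Values for narrower regions under this restriction are not given. Whether broad regions lie closer to neighbours than narrower ones there cannot be read from these values. With all scores and in place of the joining distance, a neighbour lay within 5 kb for 31.8% and within 25 kb for 65.3%, above all regions each time. No paired analysis was possible because both cultures share 1 group and their values are not separate, and no replicate could be left out. Depth is unknown, so a narrow or missing region cannot be called closed chromatin.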

Other observations

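At 2 loci, broad regions lay at or past the far end of a gene as well as toward its start. They were picked after their positions were seen, with gene positions from general knowledge. In 7p22.1, regions of 2630 bp (chr7:5564287-5566916) and 2605 bp (chr7:5568322-5570926) lay at the end and at the start of ACTB, the beta-actin gene, 1405 bp apart. In 5q32, a region of 3039 bp (chr5:149777978-149781016) lay just past the end of CD74, which encodes the invariant chain of class II antigen presentation. Regions of 2112 and 1447 bp lay toward its start, 8142 bp away. How many of the 746 regions lie at gene ends was not measured.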
